A study of Rattus norvegicus with 21 samples.

Results

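The change between 6 and 16 h of cytokine exposure was described in the empty vector line of INS-1, an insulin-producing rat insulinoma line that stands in for beta cells. It was read from 6 of the 21 arrays of the series, the 3 arrays of the pcDNA line at 16 h and the 3 at 6 h. All 6 held RNA of cells stably transfected with the empty plasmid pcDNA, precultured for 3 days and then given recombinant mouse IL-1β (150 pg/ml) together with recombinant rat IFNγ (5 ng/ml). Per the labels, the groups differed in the length of exposure. The other arrays were pcDNA at 0 h, pCTSH#1 at 0, 6 and 16 h, and untransfected INS1 cells at 0 h, with 3 arrays each. The line pCTSH#1 is 1 clone, stably transfected with a plasmid encoding cathepsin H. The labels do not say whether pcDNA is a clone, nor whether replicates came from separate cultures, so p-values may reflect technical spread only. No untreated array was made at 6 or 16 h, so the time with cytokines cannot be told apart from time in culture or handling.

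RNA quality was given as an integrity number above 8.5 for all samples, and array medians of the 6 arrays lay between 4.92 and 5.03 on the log2 scale. On them 63.7% to 66.9% of probe sets read above background, which was the highest nonspecific control of each array. Replicates lay further apart at 16 h (SD of the difference between a pair 0.237 to 0.281) than at 6 h (0.194 to 0.216), while the model takes the spread as equal, so standard errors of differences may be off. Of 9 beta-cell markers all were above background at both times, and 3 fell (the log2 of their summed intensities was 15.55 to 15.63 at 6 h and 15.32 to 15.40 at 16 h). Markers of other cell types were mostly at background at both times: 10 of 12 for macrophages, 8 of 10 for T and B cells, 8 of 10 for the exocrine pancreas, 5 of 9 for fibroblasts, 5 of 7 for endothelial cells, and 5 of 7 for other islet cells. Some of the rest moved: the fibroblast markers Fbn1 (-1.53 ± 0.16) and Thy1 (-0.47 ± 0.09) fell, with a summed level of 8.52 to 8.56 at 6 h and 8.06 to 8.14 at 16 h. The lymphocyte kinase Lck (-0.85 ± 0.15) fell too (summed level of its list 8.52 to 8.56, then 7.93 to 8.30), and so did the endothelial marker Pecam1, which was at least 1.06-fold lower (6.67 to 6.82, then 6.47 to 6.62). Of neuronal markers, which beta cells share in part, 1 of 6 was at background at both times and 1 rose, with summed levels of 9.04 to 9.19 at 6 h and 9.54 to 9.70 at 16 h; their part in the results below was not tested.

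IL-1β signals through its receptor and the adaptor MyD88 to NF-kB and the stress kinases, and these switch on genes of chemokines, cytokines and short-lived transcription factors along with inhibitors that end the signal. IFNγ signals through JAK kinases and switches on antiviral genes and antigen presentation. In beta cells the combination also leads to nitric oxide synthesis, stress of the endoplasmic reticulum and loss of specialised function. The comparison of 16 with 6 h asks which of these programmes stood lower and which higher at the later time. These times alone cannot place a peak, and a rise after 6 h may be a return from a lower level at 6 h.

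Of 13438 genes, 3333 were higher at 16 h (24.8%) and 3376 lower (25.1%) at an adjusted p below 0.05 in limma, a linear model fitted over all 21 arrays and all probe sets. The median difference over all genes was 0.0026 (log2), so shares and medians of the gene groups below are read against these shares and this median. At least 2-fold, 899 genes rose and 862 fell, and at least 8-fold, 23 rose and 19 fell. Values after ± are standard errors of the model unless SD is written, with n = 3 arrays per time, and levels are log2 intensities. A gene is called risen or fallen where it passed the test. For 57.8% of all genes the arrays of the 2 times did not overlap, so a lack of overlap is common here. A fold is given as a lower bound where the lower group lay at background, and differences are compressed where it lay within 0.5 (log2) above it. Among the genes named, the latter holds at 16 h for Tnf, Ifit3, Oas1b, Pfkfb3, Lif, RT1-N3, Hist2h2be and Fbn1. At 6 h it holds for Tp53inp1, Kcnq3, Slc25a37, Slc38a1, Ccl19 and Cnnm2.

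The genes that moved furthest fell into different time courses. Tnf, a proinflammatory cytokine, read 9.22, 9.25 and 9.52 at 6 h and 4.37, 4.41 and 4.06 at 16 h, against 3.82 ± 0.19 (SD) without cytokines. All 3 later arrays lay near background, as did those at 0 h, and the times were far apart (-5.05 ± 0.18, adjusted p = 6.82e-14, limma). Egr1, a transcription factor made within minutes of a stimulus, read 11.69, 11.71 and 11.75 at 6 h and 7.16, 6.98 and 7.16 at 16 h. Its later arrays were all below the 0 h mean of 7.62 ± 0.15 (SD). Trib3, a pseudokinase induced by amino acid and endoplasmic reticulum stress, went the other way. It read 5.90, 5.88 and 6.74 at 6 h and 11.50, 11.32 and 11.64 at 16 h, with 4.96 as the mean at 0 h, and no array of one time came near those of the other. Slc2a1, the glucose transporter GLUT1, stood first below and then above its starting level of 7.69 ± 0.16 (SD), with 6.42, 5.91 and 6.18 at 6 h and 9.86, 9.90 and 9.69 at 16 h. Among the 20 genes that rose most, the 0 h mean lay between those of 6 and 16 h in 18 and below both in 2. Among the 20 that fell most it lay between them in 12, below both in 7 and above both in 1.

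**Figure D1:**
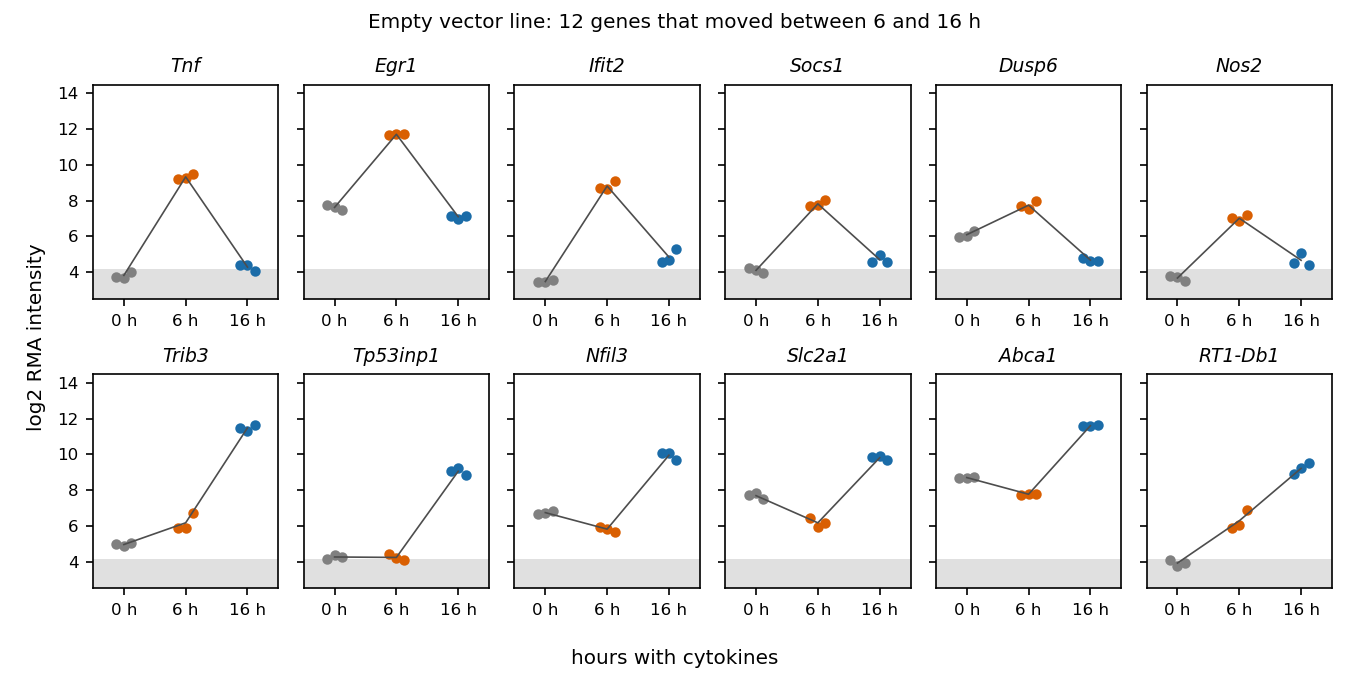
Log2 RMA intensity (vertical axis) of 12 genes on each of the 9 pcDNA arrays at 0, 6 and 16 h with cytokines (horizontal axis), 3 points per time, with a line through the means and the range up to the highest background reading in grey. The upper genes read highest at 6 h, Tnf being near background again at 16 h. The lower genes read highest at 16 h, and of them Nfil3, Slc2a1 and Abca1 read clearly lower at 6 h than at 0 h.

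Chemokines are secreted proteins that attract leukocytes, and of their 2 lists only the CXC list fell more often than all genes. None of 11 CXC chemokines rose and 6 fell (54.5%, against 25.1% of all genes, median -0.44). Cxcl2, which attracts neutrophils, read 12.33, 12.42 and 12.32 at 6 h and 10.09, 10.21 and 10.01 at 16 h. Its arrays did not overlap between the times, yet the later level stayed far above the 0 h mean of 4.26 (-2.25 ± 0.14). Cxcl1 (-1.45 ± 0.11), Cxcl3 (-1.18 ± 0.08) and the interferon-induced T-cell attractant Cxcl10 (-0.87 ± 0.11) fell too, as did Cxcl12 (-1.28 ± 0.16). Of 18 CC and CX3C chemokines 4 fell (22.2%) and 2 rose (11.1%), 9 being at background at both times (median 0.07). Neither share exceeded that of all genes (25.1% lower and 24.8% higher). Ccl2, which attracts monocytes, fell at least 4.85-fold, since its arrays at 16 h read at background. Cx3cl1, the membrane-bound fractalkine, fell by 1.41 ± 0.22 and Ccl20 by 1.12 ± 0.10. Ccl5 and Ccl19 rose. Ccl5, an attractant of T cells, read 4.85, 4.97 and 5.34 at 6 h and 6.21, 6.66 and 6.74 at 16 h, higher in every later array (1.49 ± 0.22).

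A core of the NF-kB motif, GGGNNTTTC on either strand, stood in the 250 bases before the start of 5 of 10 CXC chemokine genes with a promoter in the table (50%), against 3.68% of all 27457 promoters (RefSeq, GRCr8) and 4.03% of the 11057 of genes on the array. In the NF-kB list itself it stood in 4 of 17 (23.5%). The core was not particular to lists that fell. It also stood in 5 of 15 promoters of the MHC class I list (33.3%), where more genes rose than fell. In the CC and CX3C list it stood in 3 of 13 (23.1%). The other NF-kB core searched, GGGNNTTCC, stood in 2 of 10 CXC promoters (20%), against 5.99% of those of genes on the array. The promoters of Cxcl2 and Cxcl1 are shown because each holds a pair of matches, in capitals, within 60 bases, and both genes stayed far above their 0 h means (4.26 and 3.95) while they fell. The stretches lie at chr14:17467295-17467354 (- strand) and chr14:17479371-17479430 (- strand). A match is a description of the letters and does not show a bound site, here and below.
Cxcl2: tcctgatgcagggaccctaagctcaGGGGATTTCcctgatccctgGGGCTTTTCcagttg
Cxcl1: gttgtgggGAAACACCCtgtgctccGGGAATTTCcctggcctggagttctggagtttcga

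Of 23 cytokine ligands, 7 fell (30.4%) and 3 rose (13%), against 25.1% and 24.8% of all genes. Besides Tnf, those that fell included the growth factor Csf2, at least 5.12-fold lower at 16 h, Il1a, one of the ligands of the IL-1 receptor (at least 3.57-fold lower), Lif (-1.11 ± 0.27) and the interferon gene Ifnb1 (at least 1.72-fold lower). Gdf15, a hormone released by stressed cells, read 9.09, 8.90 and 8.55 at 6 h and 10.49, 10.56 and 10.10 at 16 h and rose by 1.54 ± 0.21. Csf1, a growth factor of macrophages, rose by 1.02 ± 0.17 and Vegfa by 0.58 ± 0.12. Among the brighter 50% of probe sets alone, 2 ligands fell.

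Receptors and adaptors divided evenly, with 8 of 24 higher and 8 lower (median 0.01). Myd88, the adaptor of the IL-1 receptor, read 8.24, 8.32 and 8.50 at 6 h and 6.14, 6.24 and 5.96 at 16 h. Its level fell by 2.24 ± 0.09, from above to below the 0 h mean of 7.54. Il1rap, the accessory chain of that receptor, read 5.73, 5.62 and 5.83 at 6 h and 8.01, 8.12 and 7.31 at 16 h and rose by 2.08 ± 0.22, and Irak3, which restrains signalling below it, by 1.72 ± 0.25. Of the interferon receptor chains, Ifnar1 (-1.04 ± 0.11) and Ifngr2 (-0.82 ± 0.07) fell, Ifngr1 rose by 0.53 ± 0.07 and Ifnar2 did not pass (0.11 ± 0.12). For Ifnar1 the mean of its probe sets had the opposite sign (0.21), so its direction depends on the probe set.

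The NF-kB group holds the subunits of this factor and the inhibitors that it induces. Of 20 members, 10 fell and 2 rose (median -0.26). Nfkbiz, a nuclear partner of NF-kB, read 12.06, 12.13 and 11.97 at 6 h and 9.37, 9.36 and 9.24 at 16 h against a 0 h mean of 6.55, all later arrays being lower than all earlier ones. The related Nfkbid (-2.27 ± 0.19) and Bcl3 (-2.25 ± 0.16), the inhibitor Nfkbia (12.26, 12.21 and 12.07 at 6 h and 11.15, 11.35 and 11.05 at 16 h) and the inhibitor of apoptosis Birc3 (-1.17 ± 0.20) fell with it. Traf2, an adaptor of the TNF receptors, rose by 1.03 ± 0.09.

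Inhibitors of other pathways fell for 10 and rose for 7 of 24. The SOCS proteins block JAK kinases, and the DUSP phosphatases switch off MAP kinases. Dusp6, specific for ERK, read 7.71, 7.54 and 7.99 at 6 h and 4.80, 4.63 and 4.60 at 16 h, and 16 h brought it below the 0 h mean of 6.09 (-3.07 ± 0.15). Dusp5 was at least 6.8-fold lower at 16 h. Socs1 read 7.68, 7.78 and 8.01 at 6 h and 4.56, 4.96 and 4.57 at 16 h, with a mean of 4.10 at 0 h, so that its later arrays had come most of the way back. Among 13 IRF and STAT factors 4 fell (30.8%) and 3 rose (23.1%), near the shares of all genes (25.1% and 24.8%). Irf9, a transcription factor of interferon signalling, rose by 0.99 ± 0.10, while Stat5a fell by 1.45 ± 0.15 and Stat5b rose by 1.45 ± 0.17.

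Immediate early genes, which are transcribed without new protein synthesis, were split between falls and rises: 14 fell and 10 rose of 32 (median 0.03). The largest falls exceeded the largest rise, that of Myc. Egr2, related to Egr1, was at least 6.67-fold lower, and Klf2 (-2.72 ± 0.14) and Ier3 (-2.98 ± 0.15) fell. Myc, the transcription factor that drives ribosome and nucleotide synthesis, read 8.80, 8.67 and 8.71 at 6 h and 11.05, 11.20 and 11.10 at 16 h, a rise in every later array (2.39 ± 0.09). Jun (1.04 ± 0.17) and Atf3 (1.05 ± 0.12) rose between 6 and 16 h as well. The cyclic AMP response element TGACGTCA, read the same on both strands, stood in 3 of 22 of their promoters (13.6%), against 1.7% of all promoters and 2.69% of those of genes on the array. The serum response element CCATATTAG stood in 1 of 22 (4.55%), against 0.118% of those of genes on the array.

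Interferon effectors fell as a group from their 6 h levels. Of 36 antiviral genes 24 fell and 4 rose (median -0.68). Ifit3, which with its relatives binds viral RNA, read 7.75, 7.59 and 8.07 at 6 h and 4.38, 4.30 and 4.56 at 16 h. The later arrays lay near background, and the 0 h mean was 3.67. Ifit1 (-2.45 ± 0.28) and Samd9l, a restriction factor (-2.37 ± 0.16), also fell. Rsad2, the antiviral enzyme viperin, went against the group, with 11.53, 11.54 and 11.59 at 6 h and 12.17, 12.21 and 12.31 at 16 h (0.68 ± 0.10), as did Bst2, which tethers virus particles (0.93 ± 0.14). Of 10 IFNγ-induced GTPases and enzymes of tryptophan breakdown 5 fell and 1 rose. Irgm, a GTPase that acts on vacuoles of microbes, read 11.43, 11.46 and 11.43 at 6 h and 8.35, 8.13 and 8.80 at 16 h and fell by 3.01 ± 0.15, with no overlap.

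The promoters of these genes were searched for the core of the interferon response motif, TTTCNNTTT on either strand, in the 250 bases before the start (RefSeq, GRCr8). It was found in 16 of 25 antiviral promoters (64%) and 7 of 9 of the IFNγ group (77.8%), against 10.1% of all 27457 promoters and 7.23% of those of genes on the array. The core was not particular to lists that fell. It also stood in 7 of 15 promoters of the MHC class I list (46.7%), in which 8 genes rose and 2 fell. In the list of cytokine receptors and adaptors, which divided evenly, it stood in 5 of 18 (27.8%). Stretches of 60 bases with the match in capitals are shown for genes of the antiviral and IFNγ groups that fell by different amounts. They let the letters be read beside the values, and the match of Oas1b is a pair that overlaps. Parp14 (-2.01 ± 0.16) and the oligoadenylate synthetase gene Oas1b (-2.14 ± 0.13) fell less than Ifit3 (-3.39 ± 0.21) and Irgm (-3.01 ± 0.15). The stretches lie at chr1:241527257-241527316 (+ strand) for Ifit3, chr10:33742579-33742638 (- strand) for Irgm, chr12:41395876-41395935 (- strand) for Oas1b and chr11:78408034-78408093 (+ strand) for Parp14.
Ifit3: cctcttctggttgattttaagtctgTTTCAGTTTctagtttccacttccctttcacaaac
Irgm: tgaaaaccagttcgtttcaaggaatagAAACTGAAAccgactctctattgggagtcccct
Oas1b: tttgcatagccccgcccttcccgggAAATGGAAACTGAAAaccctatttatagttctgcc
Parp14: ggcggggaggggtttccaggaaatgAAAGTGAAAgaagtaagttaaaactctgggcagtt

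Genes of antigen presentation, which IFNγ also induces, rose further. In MHC class II, which shows peptides to helper T cells, 8 of 9 genes rose and 1 fell (median 1.49). RT1-Db1, a chain of the class II molecule, read 5.88, 6.06 and 6.91 at 6 h and 8.89, 9.25 and 9.51 at 16 h, from 3.92 ± 0.16 (SD) at 0 h. Every later array was above every earlier one (2.93 ± 0.30, adjusted p = 9.05e-08, limma). RT1-DMb (2.59 ± 0.21), which helps to load peptides, RT1-Ba (2.53 ± 0.23) and the invariant chain Cd74 (1.58 ± 0.14) rose with it. Ciita, the coactivator that switches these genes on, rose by 0.60 ± 0.11, having read 6.06, 5.91 and 5.94 at 6 h and 6.49, 6.56 and 6.66 at 16 h. Macrophages also carry class II, and of their 12 markers 10 were at background at both times and Cd68 rose (0.68 ± 0.19), with summed levels of 7.37 to 7.43 at 6 h and 7.53 to 7.66 at 16 h. In the MHC class I list 8 of 17 rose and 2 fell (median 0.31). RT1-CE5 (1.45 ± 0.15) and the loading factor Tapbp (0.80 ± 0.11) were among the risen, and RT1-N3 (-0.76 ± 0.12) fell. RT1 genes have near-identical copies whose signals a probe set may mix, so single RT1 values are uncertain.

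The proteasome, which cuts proteins into the peptides shown by class I, behaved in a divided way. Of 5 immunoproteasome genes 3 rose, among them the catalytic subunit Psmb8 (0.59 ± 0.08), and 0 fell. Of 31 genes of the constitutive proteasome 24 fell and 1 rose (median -0.37), the falls being small and shared among its parts. In the core 9 of 13 fell (median -0.29), in the ring of ATPases 6 of 6 (-0.47), and among the remaining regulatory subunits 9 of 11 (-0.39).

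Genes of the integrated stress response rose from 6 to 16 h. In this pathway the kinase PERK and related kinases slow protein synthesis, which favours the translation of ATF4, and ATF4 with CHOP switches on genes that adjust metabolism or favour death. Of 23 genes of the PERK, ATF4 and CHOP arm 17 rose and 0 fell (median 1.01). Chac1, which degrades glutathione, read 7.95, 7.93 and 8.23 at 6 h and 10.66, 10.71 and 10.87 at 16 h against a 0 h mean of 5.38, so that a first rise by 6 h was followed by a second (2.71 ± 0.13). Ddit4, an inhibitor of mTOR, read 7.30, 7.39 and 7.35 at 6 h and 9.94, 10.22 and 9.84 at 16 h, with 7.62 at 0 h, and rose by 2.65 ± 0.09. Sesn2 (2.55 ± 0.11, from a 6 h mean of 7.12 that lay below the 0 h mean of 8.45), Nupr1 (1.99 ± 0.15) and Atf4 itself (1.23 ± 0.09) rose too. None of these genes overlapped between the times, which also held for 57.8% of all genes.

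Genes that supply amino acids or load them onto tRNA rose with the stress arm: 29 of 38 rose and 0 fell (median 1.25). Among the aminoacyl-tRNA synthetases 12 of 15 rose, among amino acid transporters 9 of 11, and among enzymes of amino acid synthesis 7 of 11. Psat1, of serine synthesis, read 8.62, 8.59 and 8.77 at 6 h and 11.14, 11.00 and 11.07 at 16 h; its 0 h mean was 8.81, and the later arrays were higher throughout (2.41 ± 0.11). The transporter chains Slc3a2 (2.26 ± 0.07) and Slc7a5 (2.21 ± 0.12), which together carry large neutral amino acids, the glycine transporter Slc6a9 (2.35 ± 0.18) and the isoleucyl synthetase Iars1 (2.06 ± 0.10) rose. Xpot, which exports tRNA from the nucleus, read 7.27, 7.31 and 7.45 at 6 h and 10.63, 10.44 and 10.43 at 16 h and rose by 3.16 ± 0.10.

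The core of the element bound by ATF4 with C/EBP factors, TTGCATCA on either strand, was found in 8 of 33 promoters of the amino acid list (24.2%) and 3 of 19 of the PERK list (15.8%), against 0.656% of all promoters and 0.561% of those of genes on the array. The stretches below are shown because the letters are the same while the distance to the start differs, from 167 bases in Chac1 and 142 in Slc38a1 to 24 in Iars1 and 17 in Mars1; the match in Slc38a1 reads on the other strand. These genes rose by 2.71 ± 0.13, 2.14 ± 0.11, 2.06 ± 0.10 and 1.85 ± 0.08 in that order. The ATF4 core was not the only motif frequent in the amino acid list. The E box CACGTG stood in 9 of its 33 promoters (27.3%), against 7.85% of those of genes on the array. The stretches lie at chr3:126795938-126795997 (+ strand), chr7:129681510-129681569 (- strand), chr17:15193653-15193712 (- strand) and chr7:65023754-65023813 (- strand) of GRCr8.
Chac1: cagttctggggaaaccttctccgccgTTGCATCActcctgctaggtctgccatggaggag
Slc38a1: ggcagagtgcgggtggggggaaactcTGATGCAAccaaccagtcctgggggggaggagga
Iars1: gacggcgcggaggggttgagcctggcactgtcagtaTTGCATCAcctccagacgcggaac
Mars1: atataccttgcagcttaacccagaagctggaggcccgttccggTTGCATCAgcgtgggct

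The chaperone arm of the same stress response, which depends on ATF6 and XBP1, did not move one way. Of 34 genes 8 rose (23.5%, against 24.8% of all genes) and 10 fell (29.4%, against 25.1%), with a median of -0.03. The fallen count was 6 when arrays were centred on their medians. Sel1l, of the machinery that removes misfolded proteins, rose by 2.66 ± 0.10, Herpud1, of the same machinery, by 1.90 ± 0.14 and the cochaperone Dnajb9 by 1.49 ± 0.13. The chaperone Hspa5 (BiP) did not pass (0.26 ± 0.13), but did so under 2 of the alternative settings. Heat shock proteins and their partners, mostly chaperones, rose for 11 and fell for 8 of 31 (5 after centring and 4 in a fit of only the 6 arrays), with the inducible Hspa1a (2.00 ± 0.24) and Hsph1 (1.83 ± 0.18) rising most and Hspa14 falling most (-1.82 ± 0.09).

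Targets of p53, the factor activated by DNA damage, rose for 18 and fell for 8 of 31 (median 0.50). Tp53inp1, a regulator of stress and autophagy, read 4.44, 4.18 and 4.08 at 6 h and 9.07, 9.25 and 8.84 at 16 h, the second largest rise of all named genes. Gadd45a (2.38 ± 0.11), Phlda3, an inhibitor of AKT (2.19 ± 0.17), and the p53 inhibitor Mdm4 (2.09 ± 0.14) rose, while Apaf1, which activates caspase 9, fell by 1.54 ± 0.18 and Tp53inp2 by 1.52 ± 0.09. Lists share members, and a shared gene is counted in each list that holds it. Examples are Sesn2, also in the PERK list, Bbc3, also in the BCL2 family, and Apaf1, also among death receptors and caspases. Cdkn1a, the cell cycle inhibitor p21, read 8.46, 8.46 and 8.54 at 6 h and 8.75, 8.69 and 8.73 at 16 h. Its arrays did not overlap, yet the difference of 0.24 ± 0.10 fell short of the threshold (adjusted p = 0.0532, limma), which it passed under 7 of the alternative settings.

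In the BCL2 family, which decides on the release of cytochrome c, 6 of 18 rose (33.3%) and 4 fell (22.2%). The shares of all genes were 24.8% and 25.1%. The killer genes Bbc3 (PUMA) and Hrk rose most: Bbc3 by 1.92 ± 0.11, with no overlap of arrays, and Hrk, which read 4.94, 4.93 and 4.92 at 6 h and 6.96, 6.62 and 6.84 at 16 h, by 1.88 ± 0.12. Bad, also of the killer class, fell by 0.93 ± 0.08, and the protective Bcl2l1 rose by 0.65 ± 0.14. Mcl1, another protective member, did not pass (-0.07 ± 0.08). Death receptors and caspases rose for 7 and fell for 8 of 22, 5 in a fit of only these 6 arrays. Casp4, an inflammatory caspase, rose by 1.37 ± 0.16, the adaptor Fadd by 0.94 ± 0.19, and the kinase Ripk1 fell by 1.06 ± 0.08.

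Mitotic genes fell nearly throughout. Of 54 genes 48 fell and 1 rose (median -0.85). Spc25, of the kinetochore, read 8.73, 8.76 and 8.66 at 6 h and 6.63, 6.91 and 6.93 at 16 h from a 0 h mean of 9.02. The mitotic kinase Plk1 read 9.30, 9.45 and 9.56 at 6 h and 7.51, 7.69 and 7.63 at 16 h with 9.79 at 0 h, and Ccnb1, the cyclin of mitosis, fell by 1.73 ± 0.10. For none of these did arrays of the 2 times overlap. Cdc20, which starts the exit from mitosis, fell by 1.53 ± 0.08, the securin Pttg1, which guards the link between sister chromatids, by 1.75 ± 0.07 and the cyclin Ccnb2 by 1.56 ± 0.09. Genes of DNA replication and S phase moved less, 23 of 53 falling and 10 rising (median -0.20). The kinase Cdk2 fell by 1.32 ± 0.15 and the replication protein Rpa3 by 1.20 ± 0.07, while Tyms, of thymidylate synthesis, rose by 1.25 ± 0.12. Of 14 D cyclins, CDK inhibitors and retinoblastoma relatives 4 fell (28.6%, against 25.1% of all genes), led by the inhibitor Cdkn2c (-1.42 ± 0.08). The only 1 that rose (7.14%, against 24.8%) was the inhibitor Cdkn1b (0.74 ± 0.11).

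Promoters of cell cycle genes often hold the element called CHR, TTTGAA on either strand, and CCAAT boxes. CHR letters stood in 22 of 47 mitotic promoters (46.8%), against 16% of all promoters and 10.9% of those of genes on the array. CCAAT stood in 35 of 47 (74.5%), against 34.3% and 35.1%. Of the chaperone arm, which did not move one way, 77.8% of promoters held CCAAT as well. The stretches of Spc25, Pttg1, Ccnb2 and Cdc20 are given as picked examples. In them the CHR letters nearest to the start, in capitals, lie 29 to 57 bases before the start. Positions in the other mitotic promoters were not compared. The stretches are at chr3:74396743-74396802 (- strand), chr10:28406327-28406386 (- strand), chr8:79981669-79981728 (- strand) and chr5:137255818-137255877 (- strand) of GRCr8, in this order.
Spc25: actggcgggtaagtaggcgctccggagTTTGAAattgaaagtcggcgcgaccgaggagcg
Pttg1: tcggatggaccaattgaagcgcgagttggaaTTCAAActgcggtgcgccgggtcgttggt
Ccnb2: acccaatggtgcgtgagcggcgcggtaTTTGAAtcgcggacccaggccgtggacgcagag
Cdc20: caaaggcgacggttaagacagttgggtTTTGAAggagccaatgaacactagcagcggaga

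**Figure D2:**
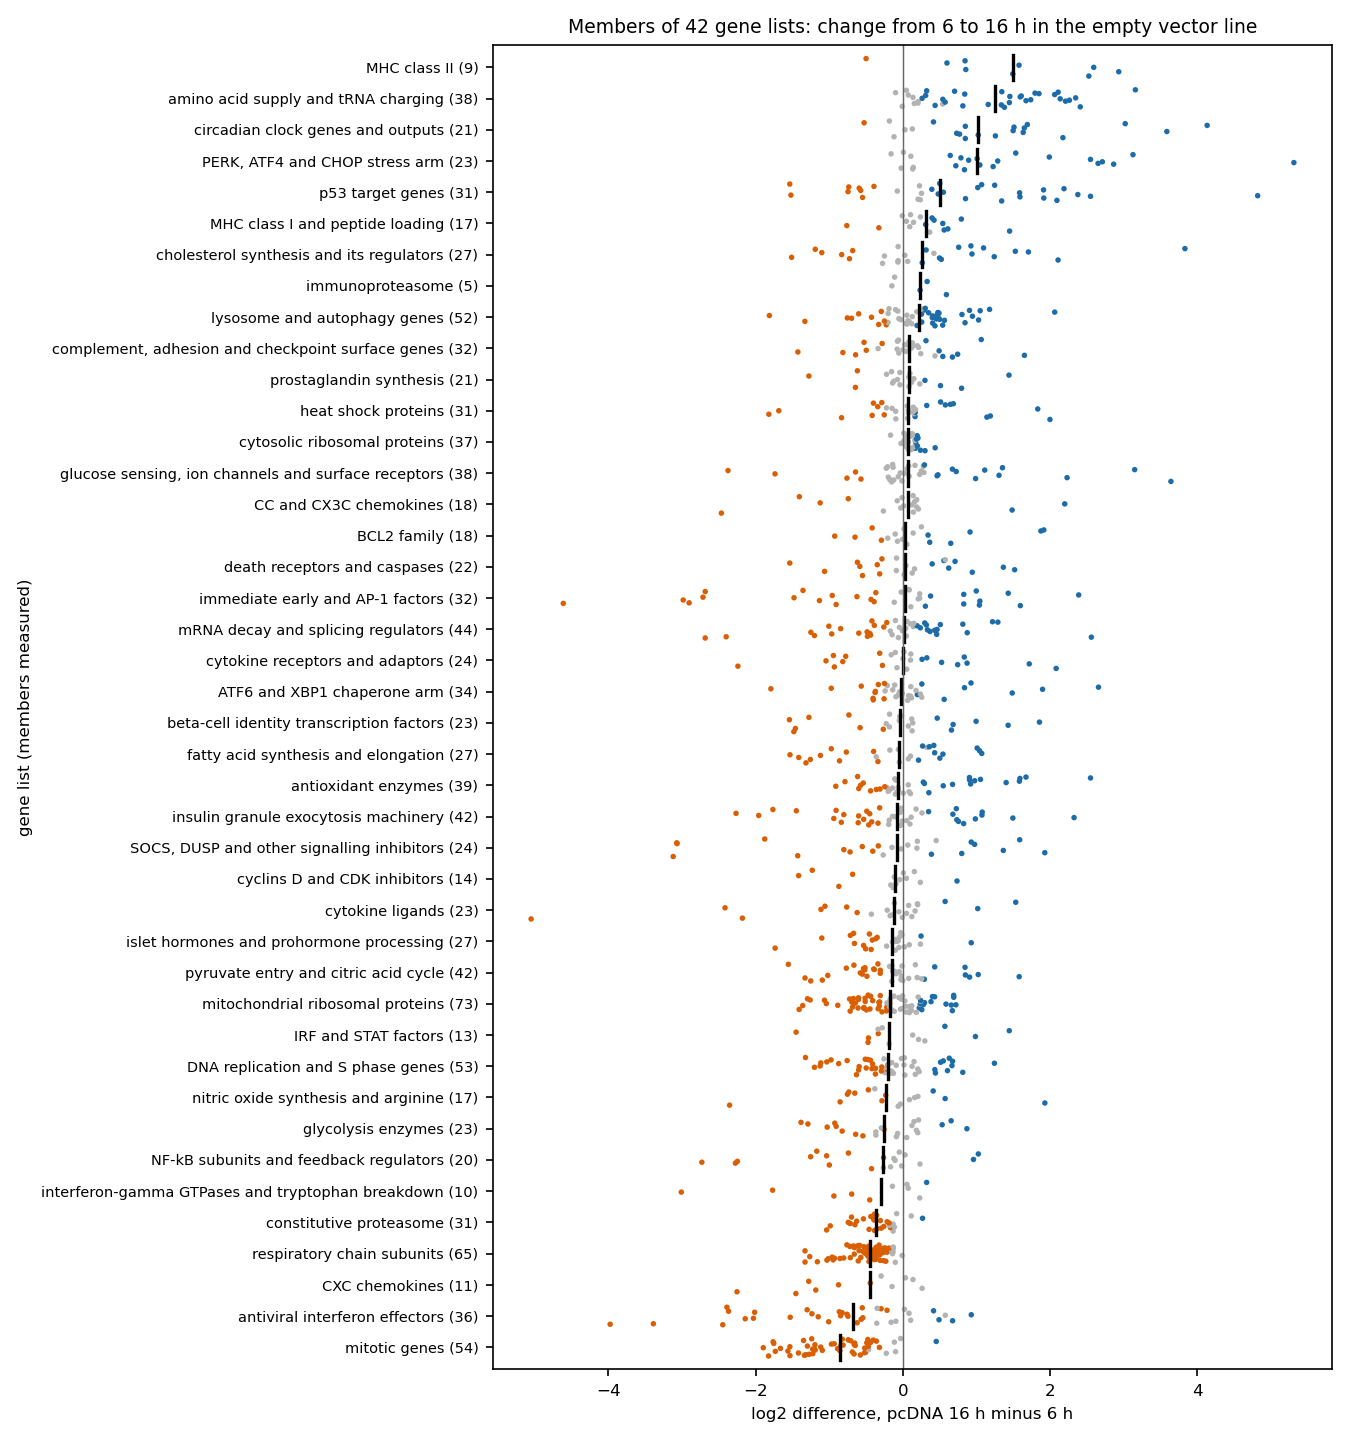
Log2 difference between 16 and 6 h in pcDNA (horizontal axis) for each measured member of 42 of the gene lists (vertical axis, number of members in parentheses, ordered by median), with risen members in blue, fallen ones in orange, others in grey and the median as a black bar. Medians run from -0.85 in the mitotic genes to 1.49 in MHC class II, next to 1.25 in the amino acid list.

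Transcription factors that keep the identity of the beta cell rose for 6 and fell for 7 of 23 (median -0.04), shares of 26.1% and 30.4% that lie near those of all genes (24.8% and 25.1%). Pdx1, a regulator of the insulin gene, read 9.30, 9.22 and 9.14 at 6 h and 7.72, 7.90 and 7.59 at 16 h, from 9.73 ± 0.04 (SD) at 0 h, the later step being the larger (-1.48 ± 0.08). Isl1 read 7.44, 7.78 and 7.21 at 6 h and 6.23, 6.36 and 5.47 at 16 h and had begun at 9.58, falling in both steps. Foxa2 read 9.28, 9.39 and 9.40 at 6 h and 10.80, 10.74 and 10.82 at 16 h, a rise of 1.43 ± 0.08 to a mean near that at 0 h (10.70). Myt1 rose by 1.86 ± 0.08.

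Hormones and the enzymes that process them fell for 12 and rose for 2 of 27 (median -0.14). Gcg, the glucagon gene, read 7.78, 7.96 and 8.25 at 6 h and 6.55, 6.43 and 5.79 at 16 h and fell by 1.74 ± 0.17. It was the only one of 7 markers of other islet cells to pass, and their summed level was 8.27 to 8.60 at 6 h and 7.15 to 7.51 at 16 h. Iapp, which encodes the amyloid peptide released with insulin, fell by 0.50 ± 0.07 and Ins2, an insulin gene, by 0.43 ± 0.08, after 12.80, 12.82 and 12.73 at 6 h and 12.53, 12.33 and 12.20 at 16 h. The other insulin gene, Ins1, did not pass (-0.10 ± 0.06, adjusted p = 0.218, limma), with 13.66, 13.69 and 13.69 at 6 h and 13.58, 13.57 and 13.58 at 16 h. These readings are near the top of the scale of the array, where signals may saturate. Tac1, the precursor of substance P, rose by 0.93 ± 0.12.

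The machinery that releases insulin granules rose for 11 and fell for 17 of 42. Rab27a, the GTPase that docks granules, read 7.18, 7.15 and 7.07 at 6 h and 5.09, 4.81 and 4.70 at 16 h against a 0 h mean of 7.68, and its effector Sytl4 fell by 1.96 ± 0.17. Nsf, which recycles the fusion complex, fell by 1.77 ± 0.09. Calcium sensors of the same process rose: Syt9 read 5.55, 4.96 and 5.38 at 6 h and 7.69, 7.67 and 7.51 at 16 h (2.33 ± 0.16) and Syt7 rose by 1.50 ± 0.23. Of 38 genes of glucose sensing, ion channels and receptors 12 rose and 5 fell. Adora2b, an adenosine receptor, read 7.05, 6.88 and 6.53 at 6 h and 10.02, 10.09 and 9.81 at 16 h after 9.66 ± 0.28 (SD) at 0 h, and thus dipped at 6 h and returned. The potassium channel Kcnh2 rose by 2.23 ± 0.11, and Adra2a, the receptor through which adrenaline inhibits secretion, fell by 2.38 ± 0.10.

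Of the energy-producing pathways, the respiratory chain moved most evenly. Of 65 nuclear-encoded subunits 58 fell and 0 rose (median -0.44). In complex I 30 of 32 fell (median -0.47), complex II 3 of 4 (-0.35), complex III 7 of 8 (-0.36), complex IV 6 of 8 (-0.30) and ATP synthase 12 of 13 (-0.53). The falls of single subunits were mostly small. Ndufa2, of complex I, read 10.88, 10.86 and 10.91 at 6 h and 9.60, 9.54 and 9.52 at 16 h (-1.33 ± 0.07), and Uqcr11, of complex III, fell by the same amount (-1.33 ± 0.08). Cox6a2, a muscle form of a complex IV subunit that is not in the list, rose at least 7.91-fold.

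**Figure D3:**
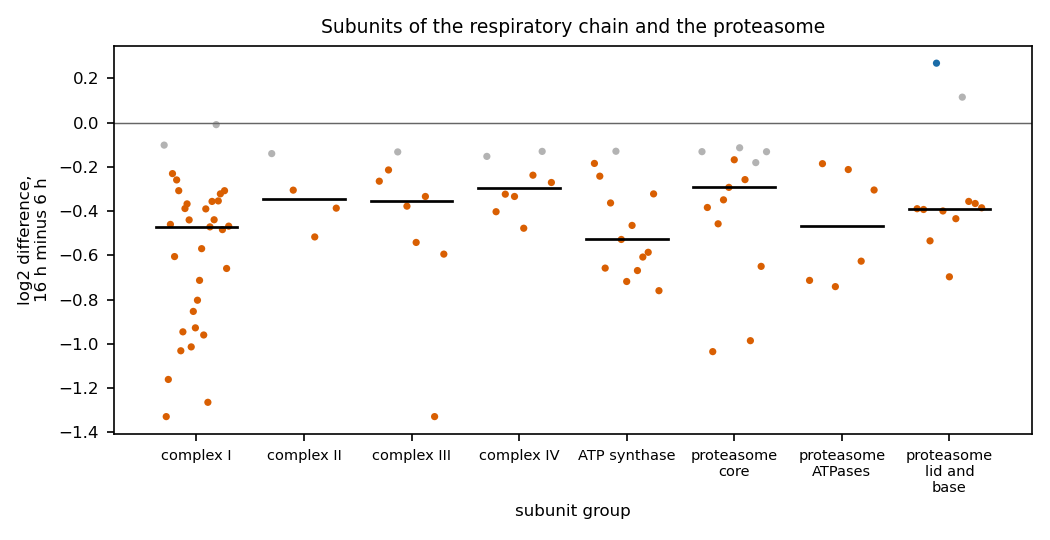
Log2 difference between 16 and 6 h in pcDNA (vertical axis) for the subunits of the 5 respiratory complexes and of 3 parts of the constitutive proteasome (horizontal axis), 1 point per gene, with fallen genes in orange, risen ones in blue, others in grey and medians as black bars. All medians lie between -0.53 in ATP synthase and -0.29 in the proteasome core.

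Mitochondrial ribosomal proteins fell for 33 and rose for 15 of 73 (median -0.17). Cytosolic ones rose for 10 (27%, against 24.8% of all genes) and fell for 0 of 37 (against 25.1%), by small amounts (median 0.08). The risen count was 2 in a fit of the 6 arrays and 26 after cyclic loess. Pyruvate entry and the citric acid cycle had 18 lower and 7 higher of 42, with the carrier Slc25a13 (-1.56 ± 0.12) and Mpc2, which takes pyruvate into mitochondria (-1.25 ± 0.08), among the lower, and Pdp2, an activator of pyruvate dehydrogenase (1.58 ± 0.12), among the higher. Glycolysis had 9 lower and 3 higher of 23, the regulator Pfkfb3 falling by 1.38 ± 0.21 and Pkm, a pyruvate kinase, by 1.03 ± 0.11.

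Cholesterol synthesis and its regulators rose for 13 and fell for 6 of 27 (median 0.26). Fdft1, which makes squalene, read 7.57, 7.38 and 7.44 at 6 h and 9.65, 9.57 and 9.50 at 16 h, and the regulator Insig1 rose by 1.71 ± 0.27, while the enzyme Tm7sf2 fell by 1.51 ± 0.16. Fatty acid synthesis and elongation had 10 higher and 10 lower of 27, or 6 higher without replicate 1 at 16 h. The desaturase Fads2 (-1.53 ± 0.12), the elongase Elovl6 (-1.41 ± 0.22) and the carboxylase Acaca (-1.32 ± 0.15) were among those that fell, while the desaturase Scd2 did not pass (0.11 ± 0.17). Srebf1, a transcription factor of lipid synthesis, rose by 1.07 ± 0.12.

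Nitric oxide, made from arginine, damages beta cells and stops respiration. Of 17 genes around its synthesis 8 fell and 3 rose (median -0.23). Nos2, the inducible synthase, read 7.01, 6.84 and 7.19 at 6 h and 4.49, 5.09 and 4.41 at 16 h. The earlier arrays were all higher, and the later ones stayed above the 0 h mean of 3.67, which was at background. Ass1, which regenerates arginine, rose by 1.93 ± 0.14, and Asl, the next enzyme of that cycle, fell by 0.85 ± 0.14. Antioxidant enzymes and their regulators rose for 15 and fell for 10 of 39, with the cystine carrier Slc7a11 (1.67 ± 0.23) and the haem oxygenase Hmox1 (1.40 ± 0.22) higher and the thioredoxin reductase Txnrd1 (-0.91 ± 0.08) lower. Rac2, a GTPase that activates NADPH oxidases, read 4.73, 5.11 and 5.62 at 6 h and 5.97, 6.20 and 5.95 at 16 h and rose by 0.89 ± 0.19 (adjusted p = 0.000614, limma).

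Lysosomal and autophagy genes rose for 26 and fell for 10 of 52 (median 0.22), 6 falling without replicate 2 at 16 h. Atg14, which starts autophagosomes, rose by 2.06 ± 0.17, Wipi2 by 1.18 ± 0.08 and the cholesterol carrier Npc2 by 1.03 ± 0.09. The kinase Ulk2 fell by 1.81 ± 0.12. Ctsh, the protease overexpressed in the other line, did not pass and read near background (3.48, 3.76 and 3.78 at 6 h and 4.18, 3.50 and 3.71 at 16 h).

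The circadian clock list had the third highest median (1.03): 16 of 21 genes rose and 1 fell. Its median level was 7.81 at 0 h, 6.99 at 6 h and 8.55 at 16 h, so the differences start from a lower level at 6 h than at 0 h. In the clock, BMAL1 and CLOCK switch on repressors that shut them off again. Nr1d1, the repressor REV-ERBα, read 4.74, 4.51 and 5.15 at 6 h and 8.43, 8.46 and 8.28 at 16 h, and Bmal1 itself, which that repressor holds down, 6.51, 6.58 and 6.63 at 6 h and 9.02, 8.68 and 8.55 at 16 h. Both rose, by 3.59 ± 0.18 and 2.18 ± 0.13, with no overlap of arrays. Nfil3 read 5.93, 5.85 and 5.68 at 6 h and 10.10, 10.06 and 9.70 at 16 h, with a 0 h mean of 6.74. Dbp, which binds the same DNA with the opposite effect, rose by 1.65 ± 0.09. The repressor Bhlhe41 rose by 3.02 ± 0.09. The labels give no clock time of sampling, so the hour of the day cannot be told apart from the length of exposure.

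Complement, adhesion and checkpoint genes rose for 7 (21.9%) and fell for 6 (18.8%) of 32, with 15 at background at both times. These shares lay below those of all genes (24.8% and 25.1%). C3, the central complement protein, read 8.15, 7.89 and 8.25 at 6 h and 9.44, 9.72 and 10.09 at 16 h and rose by 1.65 ± 0.17, and Cd59b, which protects cells from complement, fell by 1.43 ± 0.08. Prostaglandin synthesis rose for 4 (19%) and fell for 3 (14.3%) of 21, also below the shares of all genes, with 9 at background at both times. Ptgs2, the inducible cyclooxygenase, fell by 0.64 ± 0.17. Regulators of mRNA decay and splicing rose for 15 and fell for 16 of 44. Zfp36 and Zc3h12a, which destroy mRNAs of cytokines, fell: Zfp36 read 8.84, 8.88 and 8.82 at 6 h and 6.04, 6.35 and 6.10 at 16 h (-2.69 ± 0.15), and Zc3h12a fell by 2.40 ± 0.18. Zfp36l2, of the family of Zfp36, rose by 2.56 ± 0.11, and the splicing kinase Clk1 by 1.29 ± 0.19.

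Several of the largest changes were not yet given. Runx1, a transcription factor best known from blood, read 9.05, 8.91 and 9.04 at 6 h and 5.70, 5.11 and 5.53 at 16 h, after 6.70 ± 0.27 (SD) at 0 h, and so stood above its start at 6 h and below it at 16 h. Ppp1r10, a nuclear partner of protein phosphatase 1, fell by 3.70 ± 0.13, Pde4b, which degrades cyclic AMP, by 3.03 ± 0.19, and Mfsd2a, a lipid transporter, by 3.12 ± 0.19. Lrrc4c was at least 9.73-fold lower. Prkaa1, a catalytic subunit of the energy sensor AMPK, read 4.97, 5.17 and 4.78 at 6 h and 9.16, 9.01 and 8.72 at 16 h, with 5.15 as the 0 h mean. Abca1, which exports cholesterol from cells and is a member of the cholesterol list, read 7.75, 7.76 and 7.80 at 6 h and 11.58, 11.59 and 11.65 at 16 h. Its 0 h mean was 8.70, and every array at 16 h was above every array at 6 h (3.83 ± 0.11). The potassium channel Kcnq3 rose by 3.79 ± 0.14, Slc25a37, which carries iron into mitochondria, by 3.18 ± 0.13, and the lipoprotein receptor Vldlr, a member of the PERK list, by 3.13 ± 0.09. The mean of Vldlr was 9.50 at 0 h, 7.84 at 6 h and 10.97 at 16 h.

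The arrays of pCTSH#1 at the same times, which share no array with the comparison above, gave a second reading. There 6613 of 13438 genes were called, 3224 higher and 3389 lower at 16 h. Of these, 5691 were called in both lines, 5682 in the same direction and 9 in opposite ones. Antiviral effectors fell for 18 and rose for 7 of 36 in pCTSH#1, mitotic genes fell for 52 and rose for 0 of 54, and respiratory chain subunits fell for 53 and rose for 0 of 65. The amino acid list rose for 26 and fell for 0 of 38, and the clock list rose for 14 and fell for 1 of 21. The NF-kB list kept less of its fall: 8 of 20 fell and 3 rose, with a median of 0.015 in pCTSH#1 against -0.26 in pcDNA.

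The difference of the 2 changes passed the test for 50 genes (0.372% of those tested), and for 83 probe sets. This number rests on single arrays: it was 41 without replicate 1 and 48 without replicate 2 of pCTSH#1 at 6 h, 49 and 45 without replicates 2 and 3 of pcDNA at 6 h, and 130 without replicate 3 of pcDNA at 16 h. Chac1 rose by 2.71 ± 0.13 in pcDNA and by 5.20 ± 0.13 in pCTSH#1, where it read 5.48, 5.40 and 5.72 at 6 h and 10.72, 10.67 and 10.82 at 16 h. The lines thus stood apart at 6 h and close together at 16 h, and the difference of 2.49 ± 0.18 had an adjusted p of 7.83e-07 (limma). Atf4 (0.75 ± 0.13) and Ddit4 (0.76 ± 0.13) also rose more in pCTSH#1, the call of Ddit4 being lost in a fit of only the 12 arrays and without replicate 1 of pCTSH#1 at 6 h. Elmod1 did not pass in pcDNA (0.26 ± 0.16) and changed by 1.70 ± 0.16 in pCTSH#1 (difference 1.44 ± 0.23, adjusted p = 0.00717, limma). Gna15, a G protein subunit, lay near or at background in pcDNA at both times and read 7.43, 7.38 and 7.17 at 6 h and 5.38, 5.34 and 5.44 at 16 h in pCTSH#1, so its difference is not a size. Spry2, an inhibitor of growth factor signalling, changed by 1.59 ± 0.13 and 0.27 ± 0.13. Since pCTSH#1 is 1 clone, cathepsin H and other traits of the clone cannot be told apart.

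**Figure D4:**
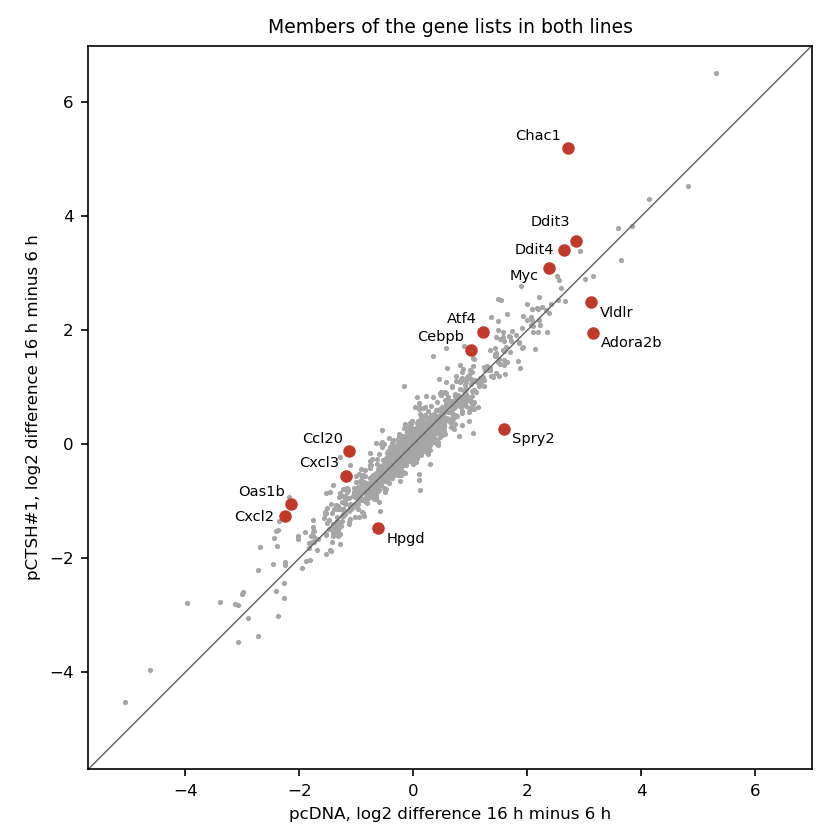
Log2 difference between 16 and 6 h in pcDNA (horizontal axis) against that in pCTSH#1 (vertical axis) for the 1238 genes of the lists, 1 point per gene, with the line of equal change. Genes whose changes differed between the lines at an adjusted p below 0.05 are red and named, with Chac1 furthest above the line.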

How the data were processed

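RNA (100 ng per sample) was hybridised as biotin-labelled cRNA to Affymetrix arrays, 1 per sample. The deposited values, used unchanged, are log2 intensities; the submitters' processing notes list RMA, affy and limma and give no versions. Of 31137 probe sets, 95 controls were set aside. The platform table gave 1 symbol to 19063 of the 31042 tested and several to 572; the other 11407 are unnamed here. A gene was represented by its brightest probe set with 1 symbol (13438 genes). Of these, 3985 had more than 1 such probe set, and for 289 the probe sets were called in opposite directions. A group was at background where at least 2 of its 3 arrays read no higher than the top nonspecific control.

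The test was limma 3.58.1 (R 4.3.3, two-sided, default lmFit and eBayes) with 7 group means over 21 arrays and Benjamini-Hochberg adjustment over 31042 probe sets. It was also run on simulated data. There few probe sets changed and the spread was equal in all groups, unlike in these data, so that run does not show how the test behaves here. Figures were drawn with matplotlib 3.10.9.

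The rule for naming genes took the 20 highest and 20 lowest without overlap and up to 6 called and 2 other members per list. It also took 5 genes always, and the 5 highest and 5 lowest differences between the lines. Some genes that it took are not among the 195 genes treated in the text. They include Ifit2 (-3.98 ± 0.20), Lhfpl6 (3.54 ± 0.20), Cnnm2 (3.23 ± 0.15) and Ddit3, the gene of CHOP (2.87 ± 0.10). Of 1551 names on 43 lists, 1281 were measured. The comparison, lists and rule were chosen with earlier results of these data known. Of the 195 genes in the text, 27 lie outside the rule and were named after their values were seen: Atf3, Atf4, Bst2, Ccnb2, Cd68, Cdc20, Cdkn1a, Ciita, Csf1, Fbn1, Iapp, Iars1, Ifngr1, Ifngr2, Jun, Lck, Mars1, Nfkbia, Nupr1, Parp14, Pecam1, Rsad2, Thy1, Tp53inp2, Traf2, Txnrd1 and Vegfa. Promoters are those of RefSeq for GRCr8, searched on both strands. Every motif was searched in every list, and only a part of these shares is given above. In the clock list the E box CACGTG stood in 3 of 18 promoters (16.7%), against 7.85% of those of genes on the array. The D box TTATGTAA stood in 1 of 18 (5.56%), against 0.47%.

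Alternative settings changed the scaling (median centring or cyclic loess), the probe sets tested (the brighter 50%, or a gene's mean), the variance model (trend with robust, or array weights), the arrays fitted (6, 9 or 12, or all but 1) and the blocking by replicate number.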

Additional observations from a re-analysis of the deposited data

Results flagged for a closer look

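The change from 6 to 16 h differed between pcDNA and pCTSH#1 for 13 of the 195 genes treated in the text. The test was of the difference itself (limma, adjusted p below 0.05, n = 3 per group and time). Values are the pCTSH#1 change minus the pcDNA change. Chac1, which degrades glutathione, had the highest of the 13 at 2.49 ± 0.18, followed by Elmod1 at 1.44 ± 0.23 and the antiviral gene Oas1b at 1.09 ± 0.18. The stress genes Ddit4 (0.76 ± 0.13) and Atf4 (0.75 ± 0.13) and the transcription factor Myc (0.71 ± 0.13) rose in both lines and more in pCTSH#1. In the PERK list 6 of 23 genes differed between the lines, against 0.372% of all genes, and not all of them are among the 13.

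Chemokine genes that fell in pcDNA had positive values too. Ccl20 changed by -1.12 ± 0.10 in pcDNA and by -0.13 ± 0.10 in pCTSH#1, a difference of 1.00 ± 0.14. Cxcl2 was at 0.99 ± 0.19 and Cxcl3 at 0.63 ± 0.11.

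Negative values were found for Spry2 (-1.32 ± 0.19), the adenosine receptor Adora2b (-1.19 ± 0.23) and the lipoprotein receptor Vldlr (-0.63 ± 0.13). Gna15 was at -1.80, a fitted value and no size, since pcDNA read near or at background.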

How the results depend on the processing

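The counts of the comparison, 6281 probe sets higher and 6834 lower, were 6385 and 6870 with the replicate number as a block. Over all probe sets, deviations of same-numbered arrays at 6 and 16 h correlated at -0.0218, 0.0686 and 0.0835. Such a correlation can miss a shared culture or batch that moves only some genes. The labels name no shared batch, so whether equal numbers pair the arrays is not known. Leaving out 1 array gave 5739 to 6103 higher and 6218 to 6609 lower. Centring arrays on their medians moved the median difference of all probe sets from 0.0037 to 0.079 and gave 7435 higher and 5811 lower (56.1% of those called higher, against 47.9%). Among the 195 genes in the text, those that passed kept their call and direction under the alternatives run, except that Ifnar1 turned from -1.04 to 0.21 when its probe sets were averaged; the cause was not tested. Of those that had not passed, Cdkn1a passed under 7 of them, Hspa5 under 2, and Ins1 and Elmod1 under 1 each. Of 1290 list counts under alternatives, 1243 stayed within 1.5 times. The 83 probe sets that differed between the lines were 122 with the block, 88 after cyclic loess, 46 in a fit of only the 12 arrays, and 41 to 130 when 1 array was left out; 3024 had an unadjusted p under 0.05. Of 15 alternatives, the call between the lines was lost in 11 for Vldlr, 10 for Cxcl2, 9 for Adora2b, 2 each for Ddit4 and Myc, and 1 for Oas1b; the cause was not tested. The number of arrays limits the precision.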

Other observations

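Some of the largest changes belong to genes of no list above. Uap1l1 read 6.22, 6.54 and 6.23 at 6 h and 10.23, 10.38 and 10.30 at 16 h and rose by 3.97 ± 0.18, and Fhdc1, a formin that organises actin and microtubules, rose by 3.92 ± 0.16. Dedd2, a protein with a death effector domain, read 5.22, 4.78 and 5.15 at 6 h and 8.59, 8.53 and 8.26 at 16 h, and the later arrays were all higher (3.41 ± 0.18). The phosphatase gene Inpp5j (3.12 ± 0.13) and the adaptor Shc2 (3.09 ± 0.13) rose too. Among the falls, Tmem50b read 9.82, 9.78 and 9.77 at 6 h and 5.83, 5.56 and 6.58 at 16 h (-3.80 ± 0.18), Unc5c, a netrin receptor, fell by 3.12 ± 0.16, the histone gene Hist2h2be by 3.24 ± 0.18, Jpt1 by 3.13 ± 0.11, B4galt5, which makes lactosylceramide, by 2.98 ± 0.10, and the SNARE gene Stx11 by 2.97 ± 0.16.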
